A study of Mus musculus with 6 samples.

Results

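The comparison is between wild-type mouse embryonic fibroblasts exposed to sodium arsenite and untreated cells of the same genotype, as 1 RNA-seq library of each. It holds the 11756 genes, of 37224 in the deposited table, whose level was at least 1 RPKM (reads scaled to gene length and library depth) in either library. The cells are labelled primary fibroblasts of the C57BL/6 strain, grown from mouse embryos in a high-glucose medium with fetal bovine serum, and exposed for 24 h near confluence. Both groups are labelled wild type, and the extraction protocol speaks of cell lines while the cell type label reads primary. The exposure is labelled low, and the treatment protocol lists 5 and 10 µM arsenite beside 0 µM without saying which of the doses was sequenced. The study also holds a control and an arsenite library of Dot1L null fibroblasts on the same background, used here only where values are set side by side, and H3K27ac ChIP-seq libraries that were not analysed here. The stated aim is the response of the whole transcriptome to a low arsenic dose. With 1 library per group no test against replicate error is possible, and every difference below is between those libraries.

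Arsenite is a trivalent form of inorganic arsenic that binds the thiol groups of proteins and of glutathione. Cells meet it with the transcription factor NRF2, which is held down by KEAP1 until KEAP1's cysteines are modified and then binds antioxidant response elements together with small MAF proteins, and with MTF1, which binds metal response elements in front of the metallothionein genes. Misfolded protein is met by heat shock factors and, through eIF2alpha kinases, by the transcription factor ATF4, while fibroblasts otherwise spend much of their transcription on extracellular matrix, adhesion and contractile proteins.

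Promoter sequence was read for genes of these pathways so that their values can be set beside the elements they carry. Each window is the RefSeq entry of GRCm38.p6 from 250 bases before to 50 after the annotated start, all on the plus strand, and positions are counted from that start. Mt1 (chr8:94178839-94179138) and Mt2 (chr8:94172368-94172667) are shown for the metal response element core, TGCACNC or TGCGCNC on either strand, in capitals. Mt1 holds 3 matches, at -23, 3 and 21, and Mt2 holds 4, at -223, -128, -50 and 5. The gene record of Mt1 begins at 94178883, within the window and upstream of the start used here. Its positions therefore hold for the window's start only.
Mt1: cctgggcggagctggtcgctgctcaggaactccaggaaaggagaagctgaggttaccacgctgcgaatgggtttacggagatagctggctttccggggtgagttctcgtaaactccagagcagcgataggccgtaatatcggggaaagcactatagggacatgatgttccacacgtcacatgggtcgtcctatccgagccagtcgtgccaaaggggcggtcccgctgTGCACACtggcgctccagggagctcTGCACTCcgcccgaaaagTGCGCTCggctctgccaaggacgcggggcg
Mt2: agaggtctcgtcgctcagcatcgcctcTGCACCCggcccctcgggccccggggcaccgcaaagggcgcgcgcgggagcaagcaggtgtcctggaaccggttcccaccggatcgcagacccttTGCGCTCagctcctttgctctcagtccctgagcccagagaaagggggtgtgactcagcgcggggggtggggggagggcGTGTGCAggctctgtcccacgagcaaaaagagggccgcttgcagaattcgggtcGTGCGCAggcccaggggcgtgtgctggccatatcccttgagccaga
Prdx1 (chr4:116685349-116685648) and Gclm (chr3:122245307-122245606) are shown for the antioxidant response element core, TGACNNNGC on either strand, because they carry the same core and had unlike fold changes. Each holds 1 match, at -133 in Prdx1 and at -134 in Gclm. The gene record of Gclm likewise begins upstream of its window's start, at 122245487. The match in Prdx1 overlaps an AP-1 motif, TGANTCA.
Prdx1: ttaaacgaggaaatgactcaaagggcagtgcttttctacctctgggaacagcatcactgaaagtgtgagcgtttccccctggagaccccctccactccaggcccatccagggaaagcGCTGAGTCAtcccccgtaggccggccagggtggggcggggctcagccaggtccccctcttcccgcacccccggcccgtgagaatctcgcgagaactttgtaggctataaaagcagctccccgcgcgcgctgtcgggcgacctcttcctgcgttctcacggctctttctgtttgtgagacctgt
Gclm: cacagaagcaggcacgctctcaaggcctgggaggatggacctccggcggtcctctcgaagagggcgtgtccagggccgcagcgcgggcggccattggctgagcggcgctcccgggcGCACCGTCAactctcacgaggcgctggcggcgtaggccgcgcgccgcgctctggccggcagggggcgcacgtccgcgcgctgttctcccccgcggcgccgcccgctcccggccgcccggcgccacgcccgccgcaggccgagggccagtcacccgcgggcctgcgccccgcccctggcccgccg
Hmgcs1 (chr13:119690101-119690400), an enzyme of cholesterol synthesis, is shown for the sterol regulatory element, TCACNCCAC, with 1 match at -137. Ep300 (chr15:81585964-81586263), which encodes p300, is shown for its base composition: 72.3% of its letters are G or C and the capitals mark 30 CG pairs.
Hmgcs1: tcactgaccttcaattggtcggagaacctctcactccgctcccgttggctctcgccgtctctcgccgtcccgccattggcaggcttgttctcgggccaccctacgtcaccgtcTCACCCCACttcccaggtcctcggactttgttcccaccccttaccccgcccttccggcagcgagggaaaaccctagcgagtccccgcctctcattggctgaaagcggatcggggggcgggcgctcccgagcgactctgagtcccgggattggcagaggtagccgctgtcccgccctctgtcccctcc
Ep300: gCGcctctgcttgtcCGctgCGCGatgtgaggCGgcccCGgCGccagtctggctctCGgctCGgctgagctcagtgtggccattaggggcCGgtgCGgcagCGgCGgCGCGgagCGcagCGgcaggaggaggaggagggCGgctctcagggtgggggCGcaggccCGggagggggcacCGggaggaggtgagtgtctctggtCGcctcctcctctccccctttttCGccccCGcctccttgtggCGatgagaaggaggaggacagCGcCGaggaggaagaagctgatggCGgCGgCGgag

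The libraries differed in depth. The whole-read steps of the RPKM values gave 62972880 reads in the control and 10833103 after exposure, 5.81 times fewer, and 19323 and 15700 genes above 0. The 100 genes with most reads in each library took 16.55% of all reads in the control and 34.62% with arsenite. The RPKM of all genes summed to 323290 in the control and 622139 with arsenite, so the summed levels below stand on unlike totals. Of 11 fibroblast markers 8 passed the filter, with a summed level of 2653 RPKM in the control and 4990 with arsenite, most of the latter from S100a4. Thy1, a defining surface marker of fibroblasts, was listed at 0 in both libraries, and Lum and Fap were under 0.1 RPKM. Markers of other cell types were few: 3 of 12 macrophage and leukocyte genes in the table passed (summed level over the whole list 24.5 and 18.5 RPKM), 3 of 9 neural and glial (122 and 34.9), 3 of 9 cartilage and bone (38.0 and 13.4), 2 of 7 adipocyte (5.64 and 10.3), 1 each of 8 endothelial (1.82 and 2.32), 8 epithelial (3.27 and 1.24) and 9 skeletal muscle genes (1.22 and 2.79), and 0 of 7 pluripotent and germ cell genes (0.366 and 0.741). Cd3e, Tyrobp, Epcam, Cldn5, Myod1 and Olig2 were listed at 0 in both libraries. The highest members of these lists in the control were Tubb3 and Nes (61.9 and 43.8 RPKM), Cd14 (21.1), Col2a1 (19.1), Sox2 (15.8) and Runx2 (15.5). With arsenite they were at 18.5, 12.7, 11.6, 9.31, 3.19 and 2.36 in that order. In bulk RNA, fewer cells of a type and less RNA per cell cannot be told apart.

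On the scale log2((arsenite RPKM + 1)/(control RPKM + 1)), which understates the difference of low genes, 1609 genes were at least 2-fold higher with arsenite, which is 13.7% of those compared, and 4495 were at least 2-fold lower, or 38.2%. The median was -0.65, and the middle 80% of genes ran from -2.07 to 1.3. Of the genes past 2-fold, 26.4% were higher. That share was 56.8% when all genes were centred on their median, 42.2% after scaling both libraries to the same 75th percentile, which moved the median to -0.28, and 51.0% after the centring on length described next. Of the members, 9533 were at 1 RPKM or more in both libraries, 1662 in the control alone and 561 with arsenite alone. Genes just inside the filter, at 1 to 1.1 RPKM in the higher library, had a median of -0.21 and those just outside it, at 0.9 to 1, one of -0.2. The plot of the libraries against each other shows the named groups on either side of equal levels.

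**Figure D1:**
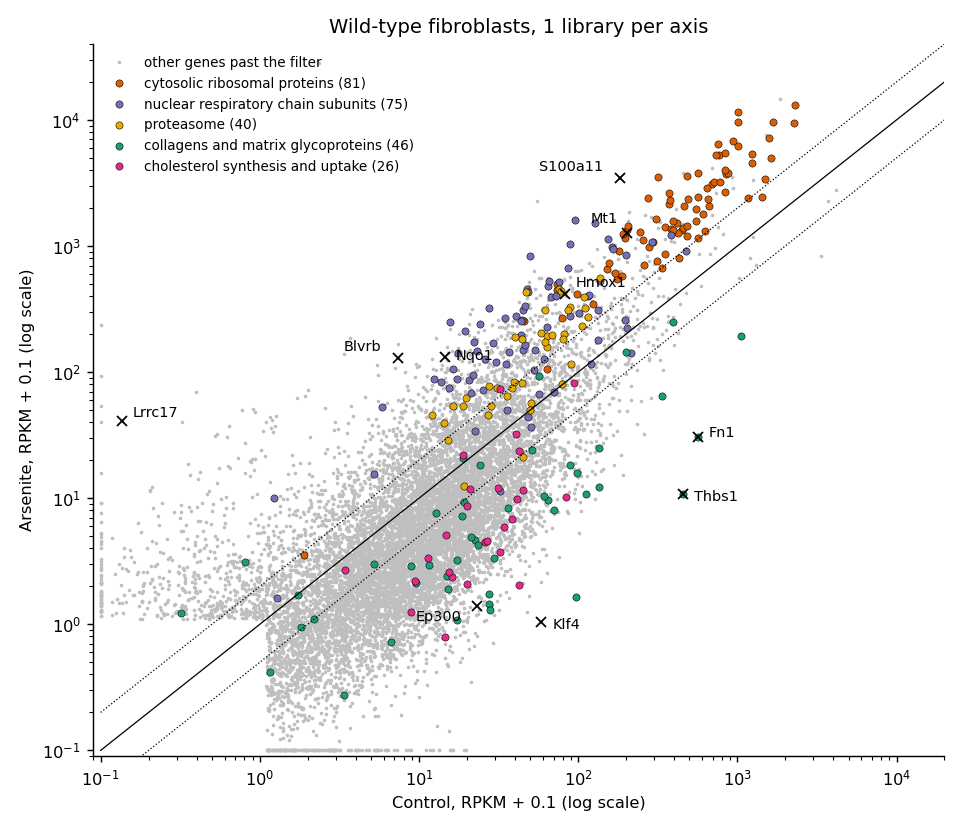
Each point is a gene past the filter, with its RPKM plus 0.1 in the control library on the horizontal and in the arsenite library on the vertical log axis. The solid line marks equal levels and the dotted lines 2-fold, coloured points are 5 groups with their number in brackets, and crosses are single genes named in the text. Ribosomal, respiratory chain and proteasome genes lie mostly above the line, and collagen, matrix glycoprotein and cholesterol genes mostly below it.

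Gene length went with the difference. Over 11419 genes of at least 200 bases the log2 fold dropped by 0.68 per doubling of length, as a description across genes with no p. The median was 1.27 for the 639 genes of 500 to under 1000 bases, where 57.9% were at least 2-fold higher, and -1.61 for the 252 genes of at least 12000 bases, where 0 were higher and 76.6% lower. Genes of 500 to under 1000 bases took 3.07% of the control's reads and 14.13% of the arsenite library's, while genes of at least 12000 bases took 4.33% and 0.81%. The mean gene length behind a read was thus 4982 bases in the control and 2908 with arsenite. Dot1L null cells showed like medians with other libraries, 1.16 and -1.52 in these same length classes. Depth differed 5.81 times between the wild-type libraries and 5.45 times between the Dot1L null ones, in both with the shallower library under arsenite. Its part in the trend was not tested.

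**Figure D2:**
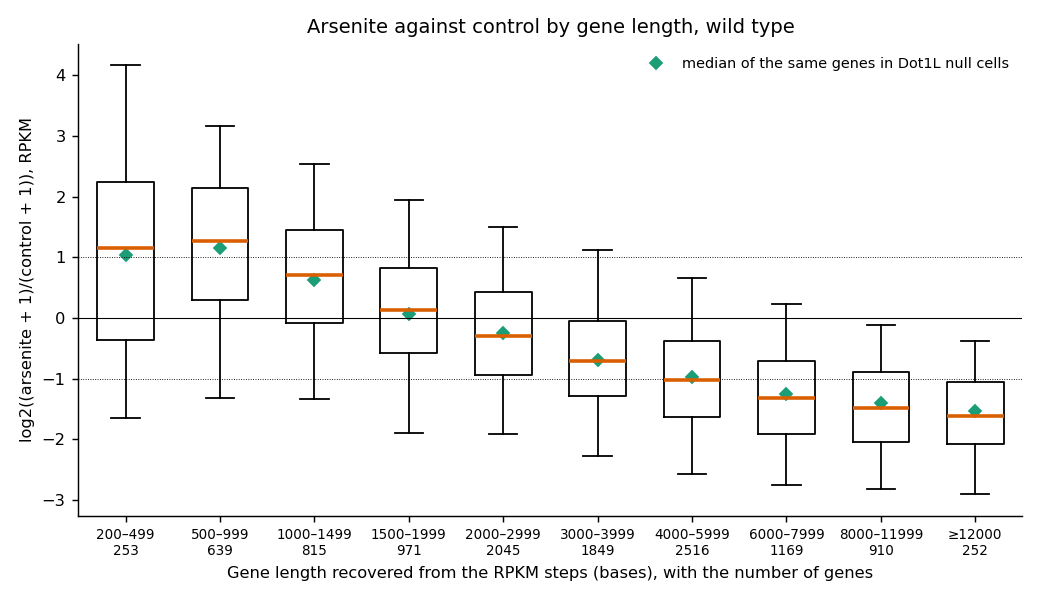
Boxes give the middle of the log2 fold of genes in 10 length classes (orange line the median, whiskers the 5th and 95th percentiles), with class and number of genes on the horizontal axis. Green diamonds are the medians of the same genes in Dot1L null cells. Wild-type medians pass from 1.27 at 500 to under 1000 bases to -1.61 at 12000 bases and more.

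Each gene was therefore also set against genes of its own length, by subtracting the median of its length class from its log2 fold; the result is called its distance. By this measure 1849 genes, or 16.2% of 11419, lay at least 2-fold above their class and 1777, or 15.6%, at least 2-fold below it. Of the genes higher without the step, 971 lay above their class and 527 did not. Of the lower ones, 1517 lay below their class and 2844 did not. Of 70 gene lists with at least 3 members past the filter, 12 had a median log2 fold of at least 1, and 10 of those kept a median distance of at least 1. Of the 30 lists with a median of at most -1, 8 kept a median distance of at most -1. A recovered length can be a whole fraction of the true one, so a single gene's distance is less certain than a list's.

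**Figure D3:**
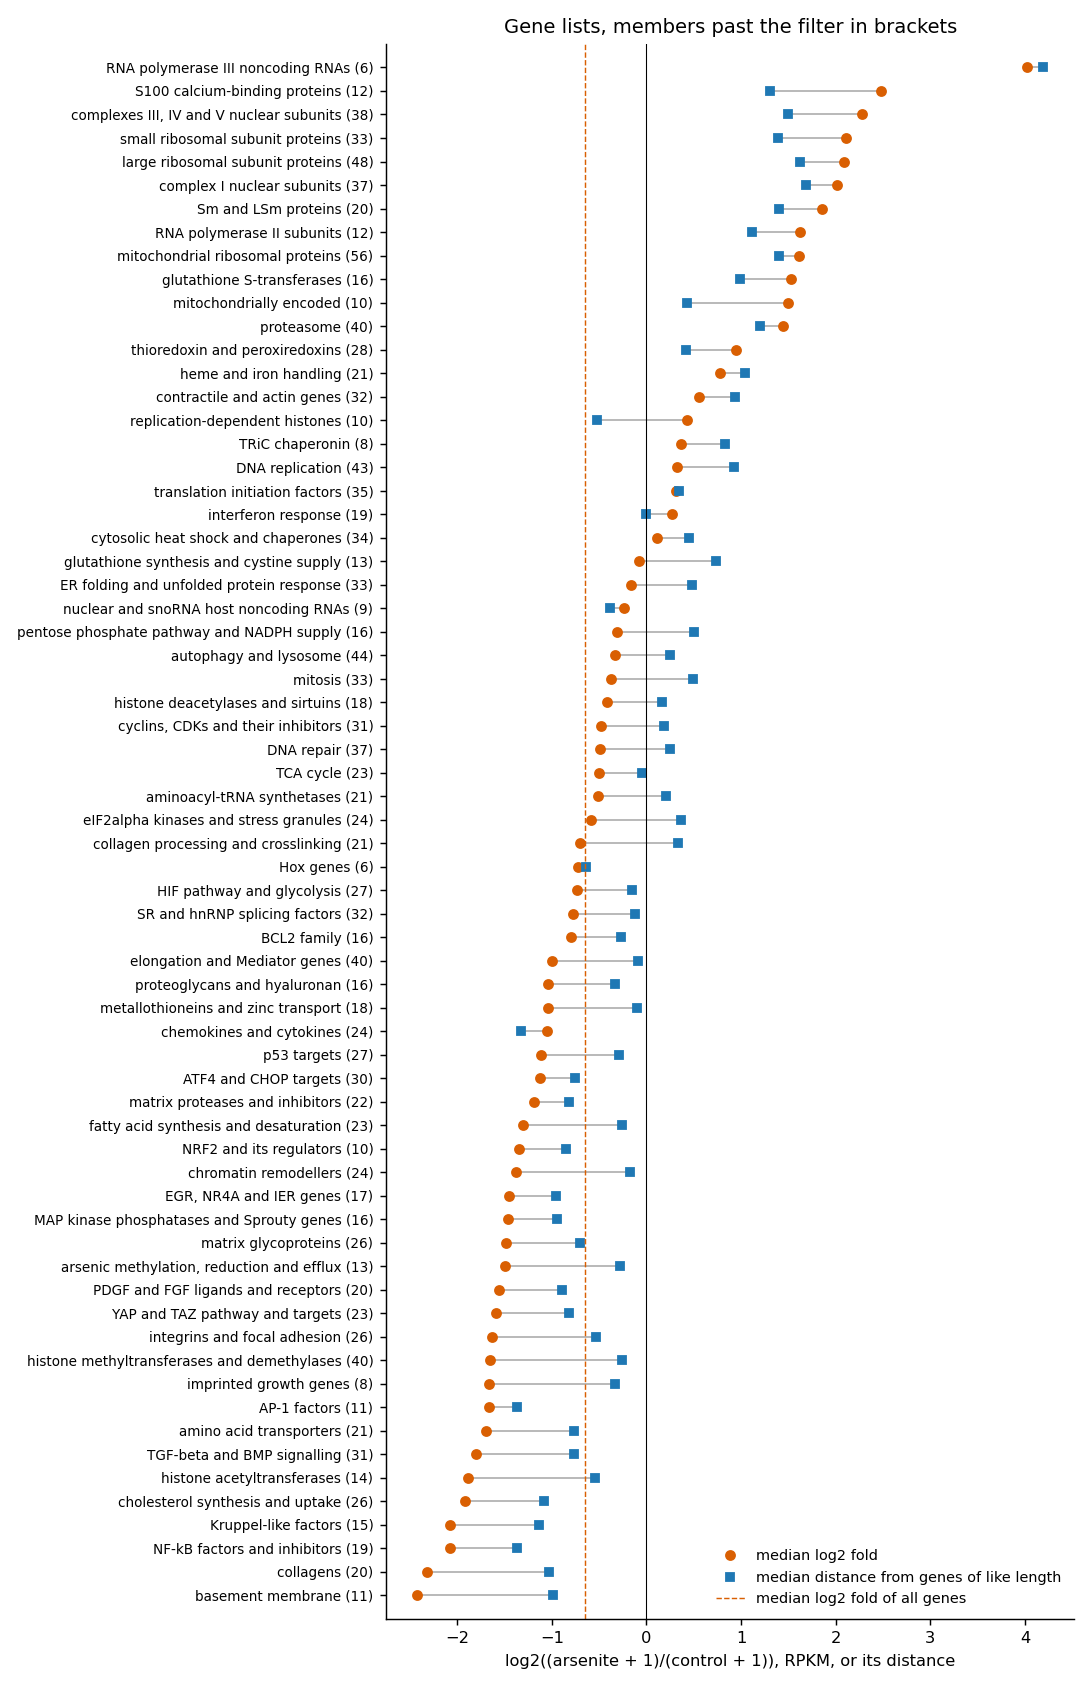
Each line is a pathway list, with the number of members past the filter in brackets. Orange circles are the median log2 fold, blue squares the median distance from genes of like length, and the dashed line the median of all genes, -0.65. The circles reach from RNA polymerase III RNAs at 4.02 to basement membrane genes at -2.42, and most squares lie nearer 0 than their circles at the lower end.

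Enzymes of detoxification and heme breakdown were higher with arsenite, while most regulators of NRF2 were lower. Blvrb, the biliverdin reductase that acts after heme oxygenase (ENSMUSG00000040466, chromosome 7, 27447978 to 27465981 in GRCm38), was at 7.28 RPKM in the control and 128 after exposure, 17.6-fold higher (95% counting interval 16.1 to 19.3), and lay 3.25 above its class. Hmox1, heme oxygenase 1 (ENSMUSG00000005413, chromosome 8, 75093618 to 75100593), was at 82.4 and 416, with a distance of 2.62. Intervals here are exact for the recovered reads, cover counting error only and treat each read as a molecule. Where a recovered length is a fraction of the true one, the recovered reads are too few and the interval is too wide. Of 523 small RNAs checked, 359 had a recovered length equal to the annotated one, and 401 one equal to it or a whole fraction of it. The others had neither. The depths were recovered from these same RNAs, so the check is not independent. Of 21 heme and iron genes 10 were higher and 6 lower, with a median of 0.78 and a median distance of 1.04. Both ferritin chains, which store iron, were among the most abundant transcripts of the arsenite library, Fth1 at 1521 and 7564 RPKM and Ftl1 at 810 and 3867. The 6 lower members, a share under the 38.2% of all genes, take iron into cells, free it or sense it, or make heme. Against genes of their length 11 of the 21 lay at least 2-fold above and 2 below, the latter a share under the 15.6% of all genes. Ncoa4, which brings ferritin to lysosomes, was 7.35-fold lower (6.44 to 8.43). Tfrc, the transferrin receptor, was at 22.1 and 5.25 RPKM (distance -0.57), and the iron regulatory protein Ireb2 at 13.1 and 2.88 (distance -0.84).

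Of 16 glutathione S-transferase genes, which join glutathione to reactive compounds, 12 were higher and 1 lower (median 1.53, median distance 0.99). Gsta4, which handles products of lipid oxidation, was at 6.95 RPKM in the control and 108 after exposure, 15.6-fold higher (13.9 to 17.5). Gstm1 stood at 32.5 and 193, and Gstp1 at 64.0 and 337. Within the mu class, and within the pi class, members are close copies of each other, so their counts may be split. Gstp2, listed at 0 in the control, had 8 reads with arsenite, at least 15.5-fold higher against a floor of 3 reads in the control library. Gstcd, which only carries a domain of this family, was the lower member, at 6.57 and 2.01. Nqo1, a quinone reductase, was at 14.4 and 132 RPKM, and Taldo1, transaldolase of the pentose phosphate pathway, at 34.9 and 228. Over 16 genes of that pathway and of NADPH supply, 3 were higher and 4 lower (median -0.31), and the list lay 0.5 above genes of its length, so its sign depends on the centring. G6pdx, the pathway's entry enzyme, was at 25.0 and 27.5.

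The thiol peroxidase system was split. Of 28 thioredoxin and peroxiredoxin genes 14 were higher and 6 lower (median 0.95, distance 0.42). Prdx1, whose promoter is printed above, was at 75.6 RPKM in the control and 401 after exposure, 5.3-fold higher (5.18 to 5.43). Txn1, thioredoxin, stood at 117 and 739, and Srxn1, which repairs overoxidised peroxiredoxins, at 14.2 and 35.7. Txnrd1, the reductase that recharges thioredoxin and a much used NRF2 target, was at 79.1 and 45.0, 1.76-fold lower (1.67 to 1.85), with a distance of -0.09. The 6 lower members were the sestrins Sesn1, Sesn2 and Sesn3, the thioredoxin inhibitor Txnip, Txnrd3 and Msrb3. Sesn1 was lowest, at 11.03 and 1.28 RPKM.

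Of 13 genes of glutathione synthesis and cystine supply 3 were higher and 3 lower. Their median was -0.08 and their median distance 0.73, so the sign turns with the centring, and the transferases' median distance was 0.99. The subunits of the rate-limiting enzyme, Gclc and Gclm, were at 21.3 and 16.3 RPKM and at 12.4 and 9.94. Gclm, whose window holds the same element core as that of Prdx1, had a log2 fold of -0.29 and a distance of 0.73, against 2.39 and 3.1 for Prdx1. Their signs differ only before centring. Slc7a11, the cystine importer, was at 14.02 and 2.38, 5.89-fold lower (5.24 to 6.64), with a distance of -0.66. Gpx4 and Gpx8, glutathione peroxidases, were the highest, Gpx4 at 327 and 1563 RPKM and Gpx8 at 20.5 and 120. Chac1, which degrades glutathione, was at 129 and 25.9.

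Of 10 genes for NRF2 and its regulators 7 were lower and 1 higher (median -1.35, distance -0.85). Nfe2l2, which encodes NRF2, was at 35.5 RPKM in the control and 11.3 after exposure, 3.14-fold lower (2.86 to 3.45). Bach1, a repressor of target genes of NRF2, was at 6.59 and 0.523, 12.6-fold lower (9.03 to 18.1). NRF2's partners Mafg and Mafk were at 43.2 and 7.38 and at 26.5 and 6.51. Keap1 was at 16.4 and 15.1 and lay 0.91 above its class. Rbx1, a small subunit of the ubiquitin ligase that acts on NRF2, was the higher member, at 51.3 and 127.

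**Figure D4:**
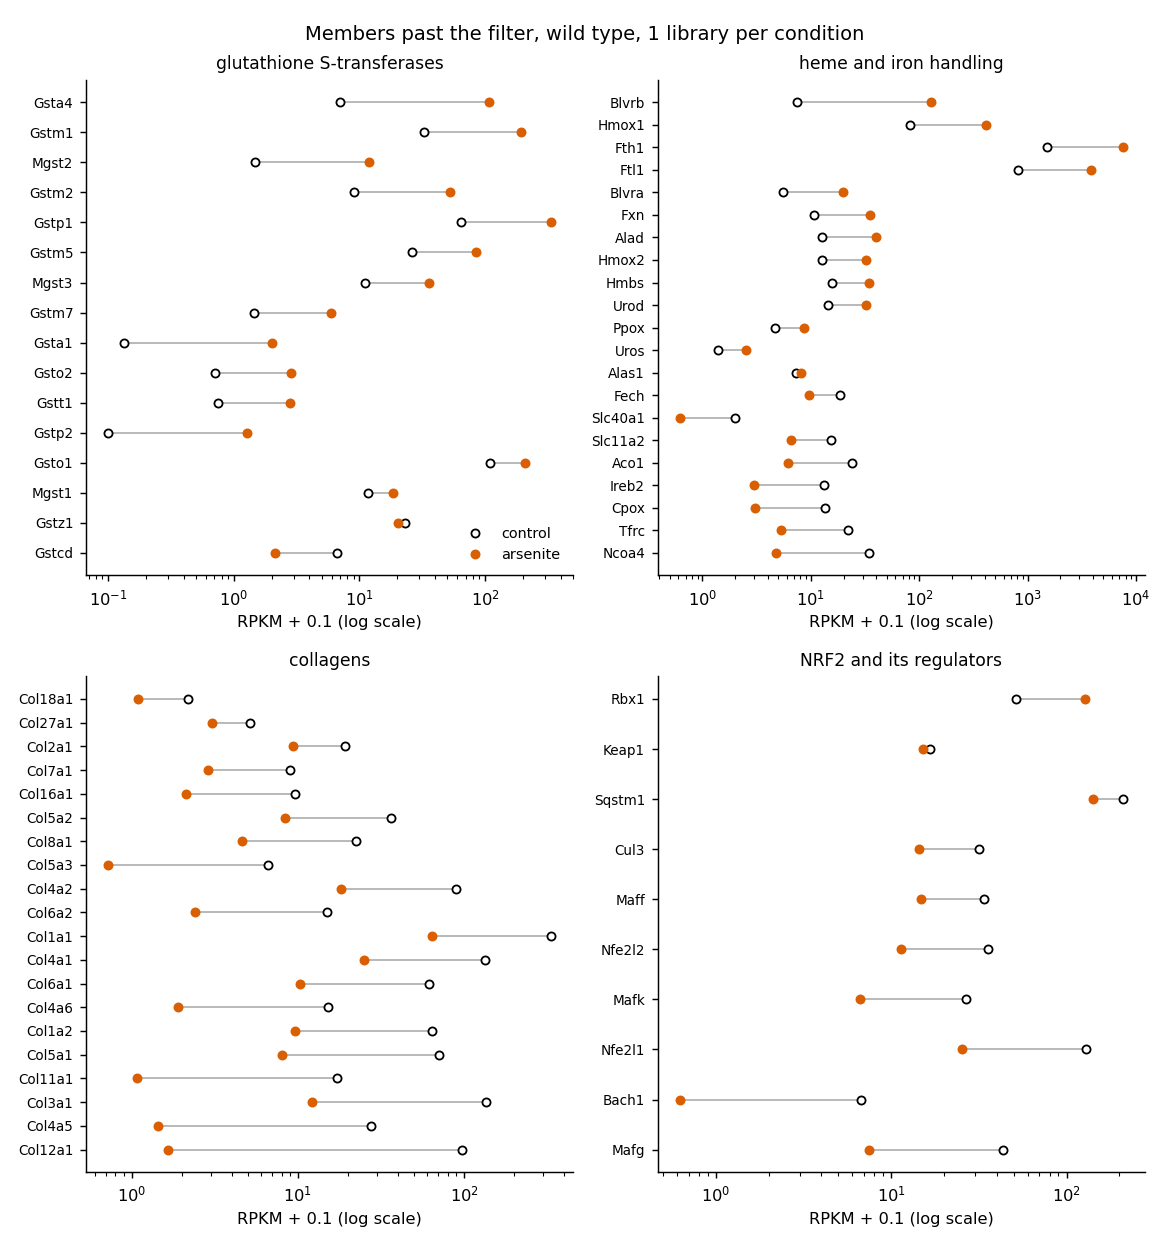
Open circles are the control library and filled circles the arsenite library for each member past the filter of 4 lists, on a log axis of RPKM plus 0.1, ordered by log2 fold. Of the transferases 12 of 16 lie at least 2-fold to the right with arsenite, of NRF2 and its regulators 7 of 10 and of the collagens 17 of 20 at least 2-fold to the left, and the heme and iron list parts into 10 higher and 6 lower genes.

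Both metallothioneins, small cysteine-rich proteins that bind metals, were higher: Mt1 was at 203 RPKM in the control and 1260 after exposure, 6.21-fold (6.01 to 6.42), and Mt2 at 324 and 1599, 4.94-fold (4.81 to 5.08). They lay 1.35 and 1.03 above genes of their short length. They were the 2 higher members of a list of 18 with zinc transport, of which 9 were lower (median -1.04, distance -0.1). Slc30a1, a zinc exporter that MTF1 also drives, was at 5.82 and 1.11, and Mtf1 itself at 4.47 and 1.33 with a distance of 0.25. Of 13 genes that methylate, reduce or export arsenic, 8 were lower and 1 higher (median -1.49, distance -0.28). Mat2a, which makes the methyl donor S-adenosylmethionine, was 4.09-fold lower (3.86 to 4.34), with a distance of -1.71. The exporters Abcc1 and Abcb1b were at 14.9 and 3.26 and at 20.3 and 3.59 RPKM. As3mt, the arsenic methyltransferase, had 1 read in each library and did not pass the filter.

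Genes that degrade and fold proteins were divided by complex. Of 40 proteasome genes 28 were higher and 1 lower, with a median of 1.44, and 28 also lay above their length class, with a median distance of 1.2. Psmb3, a subunit of the catalytic core's ring, was at 47.1 RPKM in the control and 428 after exposure, 9.09-fold higher (8.82 to 9.38). The assembly factor Pomp was at 78.1 and 441. The lower member was Psmd1, a large base subunit of the regulatory particle, at 45.0 and 21.1 with a distance of -0.03. Of 34 cytosolic heat shock and chaperone genes 10 were higher and 6 lower (median 0.11, distance 0.45). The highest were Bag1, Hspe1 and Cryab, the last at 25.7 and 122 RPKM. Hspa1a, an inducible HSP70 gene, was at 0.559 and 2.28 RPKM, and its near-identical copy Hspa1b at 7.4 and 2.01. Reads could be shared between them, so neither value is certain. Of the 8 TRiC chaperonin genes 0 were higher and 1, Cct6a, was lower.

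Genes of folding in the endoplasmic reticulum and of the unfolded protein response were mixed. In the list of 33 folding genes 7 were higher and 10 lower (median -0.16, distance 0.48, so the sign turns with the centring). Sec61g and Sec61b, small subunits of the pore, were at 15.9 and 146 RPKM and at 32.2 and 144. The sensor Ern1 was at 13.98 and 0.802, 17.4-fold lower (13.8 to 22.3), the sensor Atf6 at 26.1 and 4.51, and Herpud1, which acts in degradation from the endoplasmic reticulum, at 129 and 19.4. Among chaperones and other targets of the response, Manf was at 12.96 and 70.6, Calr, calreticulin, at 218 and 553, and the disulfide isomerase Pdia3 at 147 and 298. Hspa5, the compartment's main chaperone, was at 244 and 231.

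Targets of ATF4 and CHOP had 18 of 30 members lower and 1 higher (median -1.12, distance -0.76), and 12 lay below their class. Atf4 itself was at 477 RPKM in the control and 421 with arsenite, and Ddit3, which encodes CHOP, at 171 and 189. Atf3 was at 46.5 and 3.07, 15.1-fold lower (11.9 to 19.6), and lay 3.68 below its class. Ddit4, an inhibitor of mTORC1 signalling, was at 37.5 and 4.00. Amino acid transporters were lower in 17 of 21 cases (median -1.7, distance -0.77), led by the carriers of cationic amino acids Slc7a2, at 56.5 and 3.09, and Slc7a1, at 85.1 and 7.85. Of 21 aminoacyl-tRNA synthetases 4 were lower and 1, Rars, was higher (median -0.51, distance 0.21), so that list's sign also turns with the centring.

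Genes of the ribosome and of the respiratory chain were among the lists with the highest medians, also against genes of their length. Of 33 small ribosomal subunit genes 32 were higher (median 2.11, distance 1.39) and of 48 large subunit genes 44 (2.09, distance 1.62), with none lower. Together with their many pseudogenes these genes share near-identical sequence, so single values are uncertain. Rps24 was at 1013 RPKM in the control and 11523 with arsenite, and Rpl35 at 317 and 3523. Small subunit genes took 2.34% of the control's reads and 10.76% of the arsenite library's, and large subunit genes 3.48% and 13.48%. Of 37 nuclear genes of complex I, which passes electrons from NADH, 31 were higher and 1 lower (median 2.01, distance 1.68). Of 38 genes of complexes III, IV and V 29 were higher (2.28, distance 1.49), and of 56 mitochondrial ribosomal proteins 42 (1.61, distance 1.4), in both lists with none lower. Ndufa5 was at 15.5 and 250 RPKM, 16.1-fold higher (15.0 to 17.3). Ndufs1, the largest subunit of complex I, was the lower one, at 32.1 and 11.3. Of 10 genes encoded in mitochondria 7 were higher (1.49), but their median distance was 0.43. The highest, mt-Nd6, overlaps mt-Nd5 on the other strand, and the strand setting of the counting is not given, so its value is uncertain.

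Lists of the transcription, splicing and translation machinery differed from each other. Of 12 RNA polymerase II subunits 8 were higher (median 1.62, distance 1.11), with Polr2l at 16.7 RPKM in the control and 137 with arsenite. Polr2a, the largest and catalytic subunit, was at 68.0 and 16.4, 4.16-fold lower (3.93 to 4.4), with a distance of -0.67. Of 20 Sm and LSm proteins, which form the rings around spliceosomal RNAs, 15 were higher and none lower (1.85, distance 1.4). SR and hnRNP splicing factors had 14 of 32 members lower and none higher (-0.78), at a median distance of -0.12. Translation initiation factors had 6 higher and 8 lower of 35 (0.31, distance 0.34). Eif3a, a large scaffold subunit, was at 233 and 38.3 RPKM and Eif5a at 227 and 956. In the list of 40 elongation and Mediator genes, 6 were higher and 20 lower (-1.0, distance -0.09). Aff1 and Aff4, scaffolds of the super elongation complex, were at 33.9 and 2.36 and at 24.5 and 1.51.

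Chromatin enzymes other than deacetylases and sirtuins were lower, mostly by the amount of other genes of their length. Of 40 histone methyltransferases and demethylases 29 were lower and none higher (median -1.65), with a median distance of -0.26 and a median length of 7111 bases. Chromatin remodellers had 15 of 24 lower (-1.38, distance -0.17). Histone acetyltransferases had 10 of 14 lower (-1.89, distance -0.54), and 2 of the 14 lay at least 2-fold below their class, a share under the 15.6% of all genes. Ep300 was at 23.1 RPKM in the control and 1.29 with arsenite, from 12753 and 122 reads. It lay 1.91 below its class, and its paralogue Crebbp, at 4.35 and 1.09, lay 0.04 below. Of 18 deacetylases and sirtuins 6 were lower and none higher (-0.42, distance 0.16, with the opposite sign). That lower share is under the 38.2% of all genes. Dot1l was at 30.4 and 5.71 RPKM.

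Collagens, matrix glycoproteins, basement membrane genes and matrix proteases were lower, also against genes of their length. Of 20 collagens 17 were lower and none higher (median -2.32, distance -1.03), and 11 lay below their class. Col1a1, the main fibrillar chain of fibroblasts, was at 335 RPKM in the control and 63.9 with arsenite, and Col3a1 at 135 and 12.1. Col12a1, a fibril-associated collagen, was at 96.6 and 1.55, 62.3-fold lower (55.1 to 70.7). Of 26 matrix glycoproteins 15 were lower and 1 higher (-1.48, distance -0.7). Thbs1, thrombospondin 1, was at 458 and 10.7 and lay 3.98 below its class, and Fn1, fibronectin, was at 565 and 30.7, with 295870 and 2765 reads. Basement membrane genes were lower in 9 of 11 cases (-2.42, distance -0.99). Matrix proteases and their inhibitors were lower in 13 of 22 (-1.19, distance -0.82). Mmp9, a gelatinase, was at 12.3 and 0.47, whereas Timp1, an inhibitor of such enzymes, was the higher member at 169 and 1013. Proteoglycans and hyaluronan genes had 8 of 16 lower and none higher (-1.04, distance -0.33), but 2 of the 16 lay below their class, a share under the 15.6% of all genes. Genes that hydroxylate and crosslink collagen were lower in 9 of 21 cases with a median of -0.7, close to that of all genes, and a distance of 0.33. Integrins and focal adhesion genes were lower in 21 of 26 cases (-1.63, distance -0.53).

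Contractile and actin genes went the other way from matrix genes in part. Of 32 members 14 were higher and 5 lower (median 0.55, distance 0.94). The small thymosin Tmsb10, which binds actin monomers, was at 167 RPKM in the control and 1620 with arsenite, and the myosin light chain Myl6 at 455 and 3776. The myosin heavy chain Myh9 was at 185 and 21.8, 8.48-fold lower (8.06 to 8.92), with a distance of -1.71. The S100 proteins, small calcium-binding proteins, had 10 of 12 higher and none lower (2.48, distance 1.31). S100a11 (ENSMUSG00000027907, chromosome 3, 93520496 to 93526288) was at 183 and 3454, 18.9-fold higher (18.3 to 19.4). S100a4, also counted as a fibroblast marker, was at 688 and 4191. Of the other fibroblast markers past the filter 6 were lower, with Dcn, decorin, at 60.7 and 3.85.

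Transcription factors and ligands of the early response were lower. Of 15 Kruppel-like and related factors 13 were lower and none higher (median -2.07, distance -1.14). Klf4 was at 58.6 RPKM in the control and 0.939 after exposure, 62.4-fold lower (43.9 to 91.9). Of 11 AP-1 factors 8 were lower and 1 higher (-1.66, distance -1.37), with Jun at 41.6 and 3.36, and the higher Batf3 from 43 and 41 reads. Of 17 EGR, NR4A and IER genes 13 were lower (-1.45, distance -0.96), and of 16 MAP kinase phosphatases and Sprouty genes 10 (-1.46, distance -0.94). NF-kB factors and inhibitors had 16 of 19 members lower and none higher (-2.08, distance -1.37), Nfkb1 at 44.1 and 4.08 and Nfkbiz at 16.4 and 0.975. Chemokines and cytokines, which are short genes, were lower in 13 of 24 cases (-1.05) but lay below their class in 16 (distance -1.33). Ccl2, which attracts monocytes, was at 247 and 59.0, and Cxcl10 at 24.2 and 2.49, 9.71-fold lower (7.14 to 13.6). Interferon response genes had 4 higher and 5 lower of 19 (0.27, distance 0), among them B2m at 234 and 1133 and Irf1 at 31.8 and 5.06.

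Growth factor and morphogen pathways were lower as well. The YAP and TAZ list had 21 of 23 lower and none higher (median -1.59, distance -0.82). It joins the coactivators' targets with the kinases Lats1 and Lats2, which restrain them, and Lats1 was at 10.9 RPKM in the control and 0.721 with arsenite. TGF-beta and BMP genes had 20 of 31 members lower and 2 higher (-1.8, distance -0.77). The BMP antagonist Grem1 was at 100.4 and 5.23, 19.2-fold lower (16.9 to 21.9), and the receptor Bmpr2 at 15.0 and 0.364. Bmp4 and Id1, a ligand and a target of the pathway, were the higher members, Bmp4 at 16.5 and 46.7. Of 20 PDGF and FGF genes 13 were lower and none higher (-1.56, distance -0.89). Hgf had 946 control reads and 0 after exposure, at least 54.2-fold lower against a floor of 3 reads.

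Genes of lipid synthesis were lower, while the hypoxia, glycolysis and TCA cycle lists had medians near the -0.65 of all genes. Of 26 cholesterol synthesis and uptake genes 19 were lower and 1 higher (median -1.92, distance -1.08), and 16 lay below their class. Srebf2, the transcription factor of the pathway, was at 84.1 RPKM in the control and 10.0 after exposure, 8.39-fold lower (7.7 to 9.15). Hmgcs1, whose sterol element is shown above, was at 34.1 and 5.77. Ebp, a late enzyme, was the higher member at 32.3 and 72.9. Of 23 genes of fatty acid synthesis 15 were lower and 2 higher (-1.3, distance -0.26), with Fasn, fatty acid synthase, at 105 and 12.3. Hif1a was at 48.7 and 1.57, 31.1-fold lower (25.5 to 38.2), and its target Vegfa at 114 and 14.8. In the list of 27 hypoxia and glycolysis genes 11 were lower and 1, Gapdh, was higher (-0.73, distance -0.15). That lower share is near the 38.2% of all genes. The TCA cycle had 2 higher and 4 lower of 23 (-0.5, distance -0.05), shares under the 13.7% and 38.2% of all genes.

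Lists of DNA replication, mitosis, DNA repair and cyclins had medians between -0.49 and 0.32, above the -0.65 of all genes. DNA replication genes had 14 of 43 members higher and 4 lower (median 0.32, distance 0.92), and 19 of the 43 lay at least 2-fold above their class, with Tyms, thymidylate synthase, at 9.21 RPKM in the control and 31.0 with arsenite. Mitosis genes were higher in 7 and lower in 7 of 33 (-0.37, distance 0.49): Pttg1, securin, was at 13.8 and 114, and Ect2, which drives cytokinesis, at 25.3 and 2.52. DNA repair genes were higher in 3 and lower in 10 of 37 (-0.49, distance 0.25), and cyclins, kinases and inhibitors higher in 2 and lower in 8 of 31 (-0.48, distance 0.19). Above their class lay 9 of the mitosis, 5 of the repair and 4 of the cyclin genes, the last 2 at shares under the 16.2% of all genes. The last 3 medians change sign with the centring on length. Myc was at 128 and 23.0, with a distance of -2.13. Of 27 p53 targets 15 were lower and 1, the death effector Bax, was higher (-1.11, distance -0.29). Cdkn1a, the inhibitor most used as a p53 readout, was at 8.56 and 8.84, a ratio of 1.03 (0.888 to 1.2) that counting error alone covers. Autophagy and lysosome genes had 6 higher and 15 lower of 44 (-0.33, distance 0.25), with Gabarap at 60.0 and 320 and the kinase Ulk1 at 17.3 and 3.88.

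Noncoding RNAs stood at both ends. The 6 RNA polymerase III transcripts past the filter were all higher (median 4.02), 3 of them long enough for a length class. Their control levels summed to 5.20 RPKM, of which Rn7sk held 3.60 and Rmrp 1.05. Others, such as Rpph1 at 0.299, thus passed only through the arsenite library, and the filter itself set their direction. Rn7sk, which holds the elongation kinase P-TEFb inactive, had 75 reads in the control and 668 after exposure, 51.8-fold higher (40.7 to 66.6). Rpph1, the RNA of ribonuclease P, had 6 and 242. The protocol names removal of ribosomal RNA and the molecule label names polyA RNA, and these transcripts lack a poly(A) tail. Neat1, the long RNA that builds paraspeckles, was at 128 RPKM and 15.3, 8.36-fold lower (8.09 to 8.65), with a distance of -1.37. Malat1 was at 113 and 38.4, with a distance of -0.22. Gas5, which hosts small nucleolar RNAs, was higher at 68.2 and 150. Among 162 pseudogenes 71.0% were higher, beside 13.7% of all genes, but their reads may come from parent genes. Their median length was 492.5 bases, and 55.3% of genes in the shortest length class were higher. Of 148 with a length class, 42.6% lay at least 2-fold above it and 17.6% below it, beside 16.2% and 15.6% of all genes. Their median distance was 0.49. Replication-dependent histones had 4 of 10 higher (0.43). They are short genes and lay 0.52 below others of their length, so the sign turns. Of 6 Hox genes 3 were lower and none higher, at levels under 4 RPKM.

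Ranked by distance rather than by log2 fold, single genes with a symbol were led by Lrrc17, a secreted leucine-rich repeat protein, with 5 control reads and 969 after exposure (0.0363 and 40.9 RPKM, 1127-fold, 481 to 3477). Rpph1 and Rn7sk came next, then Fxyd5, a regulator of the sodium pump, at 12.2 and 105 RPKM, and Esd, esterase D, at 48.9 and 480. Esd had 10375 and 17514 reads, so it was higher in reads as well as in RPKM despite the shallower library. Ccdc34, Ubl5, Pbld2, Eif5b and Mrpl51 completed the 10. Farthest below were Styx, Foxf1, Klf4, Sbno2, Krt80, Thbs1, Pdgfb, Slc25a30, Zfp955a and Zfp445. Styx had 807 control reads and 0 after exposure. Several of these, such as Foxf1 at a recovered length of 531 bases, may have been assigned too short a length, which would make their distance too low. The highest level overall passed from Eef1a1, a translation elongation factor, in the control (4138 RPKM, 2799 with arsenite) to Lgals1, galectin 1 (1847 and 14542). Of 597 genes with a mean level of at least 100 RPKM, 59.6% were higher, and the 3774 genes with a mean of 3 to under 10 RPKM were lower in 49.7% of cases.

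Promoter composition also went with the difference. Exactly 1 promoter window was matched for 7006 members, and those with several windows (1797) or none (2953) were left out. These genes were split into 5 groups of near-equal size by the share of G and C in the window. The median log2 fold passed from -0.28 in the group with least G and C to -1.13 in the group with most, where Ep300 lies. The median length was 2939 bases in the former and 4355 in the latter. The distances followed the same order at the ends, 0.17 and -0.24, and the share of genes at least 2-fold below their class was 11.7% and 22.1%.

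**Figure D5:**
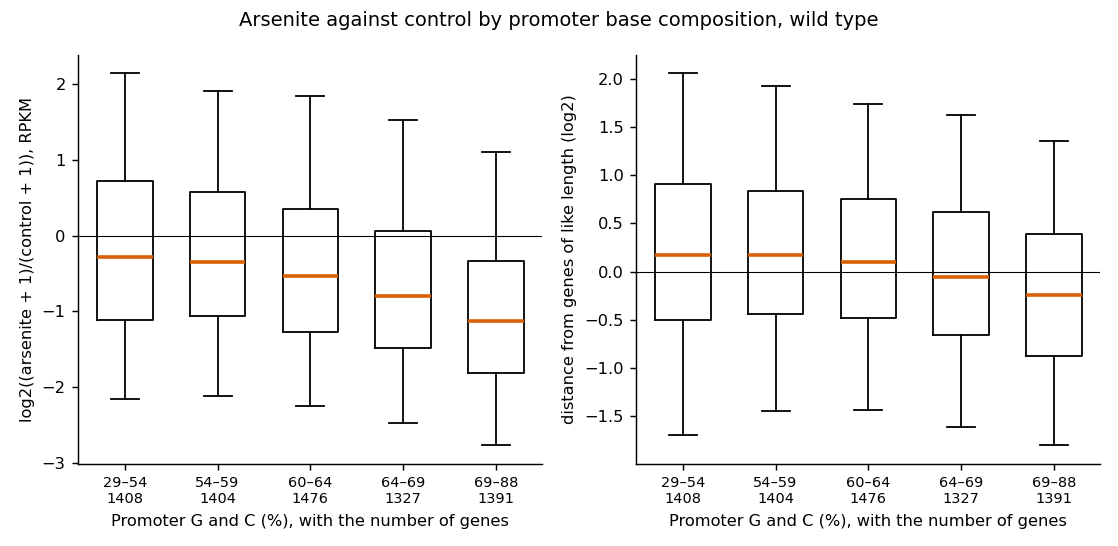
Boxes give the log2 fold (left) and the distance from genes of like length (right) of members in 5 groups by promoter G and C content, with the range in percent and the number of genes under each box, the median in orange and whiskers at the 5th and 95th percentiles. Left medians pass from -0.28 to -1.13 and right medians from 0.17 to -0.24.

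Motif content differed by small shares between genes above and below their class. The antioxidant response element core was in 12.3% of all 22862 promoter windows, 14.7% of the members' windows, 14.6% of those above their class and 16% of those below. The metal response element core, TGCACNC or TGCGCNC, was in 25.1%, 37.8%, 35.3% and 40.4%. The sterol element was in 1.2%, 0.9%, 0.7% and 1.2%, the heat shock element (GAANNTTC or TTCNNGAA) in 15.2%, 11.2%, 12% and 11.1%, and AP-1 in 8.0%, 4.3%, 5.2% and 3.5%. The cyclic AMP element TGACGTCA was in 1.9%, 3.6%, 4.0% and 4.0%, the NF-kB core GGGNNTTCC in 5.6%, 7.2%, 6.2% and 6.4%, the ATF4 element TGATGCAAT in 0.2%, 0.2%, 0.1% and 0.3%, and the CArG box in 1.5%, 1.4%, 1.6% and 1.7%. All were searched on both strands, and a match is a description of letters, not a bound site.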

How the data were processed

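Per the labels' protocols, libraries were strand-specific (dUTP) and paired-end after Ribo-zero removal, but their molecule is labelled polyA RNA. The authors deposited RPKM values for 37224 Ensembl genes in 4 columns; TopHat, HTSeq, Bowtie and deepTools and the build mm10 are named in the submitters' processing notes without roles, and the sources used here give neither the annotation nor the strand setting. RPKM values move in whole-read steps, from which depth, a gene length and reads were recovered (relative tolerance 1e-12); the reads sum to 97.9% to 98.3% of depth. They served for counting intervals (Clopper-Pearson, 95%) and length classes only. The procedure was tested on simulated data. No count model or p-value was computed. Symbols were found for 35449 IDs; positions and promoters are from RefSeq GRCm38.p6. Python 3.11.15, pandas 2.3.3, numpy 2.4.6 and scipy 1.17.1 were used.

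Genes named are the extremes of the log2 fold and of the distance (10 each way, with symbols that are not of predicted genes or small RNAs), and in each of 66 pathway and 9 marker lists the members farthest from 0, those against the list and listed core genes; others named as examples of a role were chosen after their values were seen. Members and lists were chosen with earlier results of these data known. Alternatives were another pseudocount, filter and 3 scalings.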

Additional observations from a re-analysis of the deposited data

Results flagged for a closer look

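Cholesterol synthesis and uptake genes had a median log2 fold of -1.92 with arsenite in wild-type cells and 0.3 in Dot1L null cells, where it was computed in the same way on the same genes. The medians lie on opposite sides of 0, and the difference between genotypes was not tested, since each group holds 1 library.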

How the results depend on the processing

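The median log2 fold of all genes, -0.65, was -0.79 with a pseudocount of 0.1 RPKM, -0.28 after scaling to the same 75th percentile and -0.1 with no filter beyond a value above 0. Genes at least 2-fold higher numbered 2837, and lower 2162, when centred on the median of all genes, and 1777 were lower when centred on the length class. Over 70 list medians, 23 crossed 1 or -1 under median centring, 25 under length centring, 13 under 75th percentile scaling, 9 without a filter and 3 with the other pseudocount. With a filter at 5 RPKM 2 did, of the 67 lists that still had a value, and no called median changed sign. No paired analysis was possible because each group holds 1 library. The shallower arsenite library limits low genes: 157 members had 0 reads there and 59 had 0 in the control. Counting intervals leave out variation between cultures, and no replicate was there to leave out.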

Other observations

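Zinc finger genes with a symbol that begins with Zfp, a group chosen after its values were seen, were mostly lower. Of 293 past the filter 159 were at least 2-fold lower and 4 higher, beside 38.2% and 13.7% of all genes. Their median was -1.11, and their median level was 5.31 RPKM in the control and 1.49 with arsenite. Against genes of like length the median was -0.31. At least 2-fold below their class lay 76 and above it 10, beside 15.6% and 16.2% of all genes. Of 251 long noncoding RNAs with a length class 37.1% lay at least 2-fold below it and 10.4% above it, beside 14.3% and 16% of 10563 protein-coding genes.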
